A study of Equus caballus with 45 samples.

Results

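The genes described here encode the machinery that copies DNA in S phase and the factors that start S phase, 49 genes chosen by their symbols. Of these, 48 had a row in both count tables, of 20881 protein-coding genes in each table, and CHAF1B was not analysed here. DUT, which clears dUTP, and E2F8, an atypical E2F repressor, were at 0 or 1 count in every library, so 46 members were tested in each comparison. By role, the tested members were 5 genes of origin licensing, 12 of the replicative helicase, 7 of the polymerases and primase, 8 of the clamp, its loader and strand joining, 4 of nucleotide supply, 4 of histone supply and chromatin, 5 G1/S regulators, and the repair gene BRCA1.

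The 45 bulk RNA-seq libraries came from equine cells. In 12 of them, mesenchymal stromal cells (MSC, fibroblast-like cells grown from adult tissue) of 3 donors, labelled 92, 99 and PC, were left untreated or received poly I:C, which activates TLR3, 2′3′-cGAMP, which activates STING, or CpG, for which the labels give no dose. The labels give the exposure to poly I:C or 2′3′-cGAMP as 2 h at 10 ng/mL, while the design text gives 10 µg/mL, and the cells were washed and cultured for 24 h more. In the other 33, synoviocytes, chondrocytes and monocyte-derived macrophages, each type from 1 horse, received conditioned medium (CM) of MSC from donors AG1, ORC and PC for 24 h, mixed with their own medium, and were then washed and cultured for 24 h without it. The CM came from untreated MSC (resting MSC-CM), from MSC activated with poly I:C (TLR-MSC-CM) or from MSC activated with 2′3′-cGAMP (STING-MSC-CM). Each CM and cell type had 3 libraries, 1 per MSC donor. The labels do not tell whether donors AG1 and ORC are the MSC donors labelled 92 and 99. These joint cells were also stimulated with IL-1β and TNF-α, at 20 ng/mL for synoviocytes and 10 ng/mL for macrophages in the labels, as were the 3 libraries with cytokines only. A further 3 libraries, 1 per joint cell type, had no addition. The replicates of a joint cell type thus share their cells and differ in the donor of the CM, so that p-values measure the spread between such libraries and not between horses with a given joint cell.

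A cell licenses its origins in G1, when the origin recognition complex with CDC6 and CDT1 loads the ring of MCM2 to MCM7 onto DNA. Cyclin E with CDK2 and the E2F factors then open S phase, CDC45 and the GINS complex join the MCM ring to form the active helicase, and polymerases alpha, delta and epsilon copy the strands with the sliding clamp PCNA. Most of these genes are E2F targets, so their mRNA is low in resting cells and high in cycling ones, and in cultured stromal cells they follow the growth state of the culture.

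Total counts lay between 23525704 and 54103873 per library, and 3 counts in a library corresponded to 0.0554 to 0.128 CPM, far under the levels of the tested members. CPM here are counts relative to the total of their library, scaled by TMM, a method that assumes that most genes do not differ between libraries. The 2 tables were scaled apart, and no MSC library is compared with a joint cell library. The share of all counts that fell on the members ranged from 0.0693% to 0.333%, with both ends in MSC. Several libraries stood apart or went against their label. The poly I:C library of donor 92 held interferon-stimulated genes at a mean log2(CPM + 1) of 2.75, against 3.00 in the untreated library of that donor and 7.21 to 8.52 in the other 5 libraries with poly I:C or 2′3′-cGAMP. Every macrophage library held T and NK cell markers at a mean log2(CPM + 1) of 5.09 to 5.54 over 11 genes, against 0.04 to 0.16 in synoviocytes and chondrocytes. The chondrocyte libraries held COL2A1, the collagen that defines cartilage, at no more than 0.381 CPM, so the label of these cells was not borne out by that marker. SOX9, the transcription factor that drives cartilage genes, was at 7.49 to 69.9 CPM. Over 10 chondrocyte markers, the mean log2(CPM + 1) was 1.84 to 2.57 in chondrocytes with CM, above the 1.34 to 1.44 in synoviocytes with CM.

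**Figure D1:**
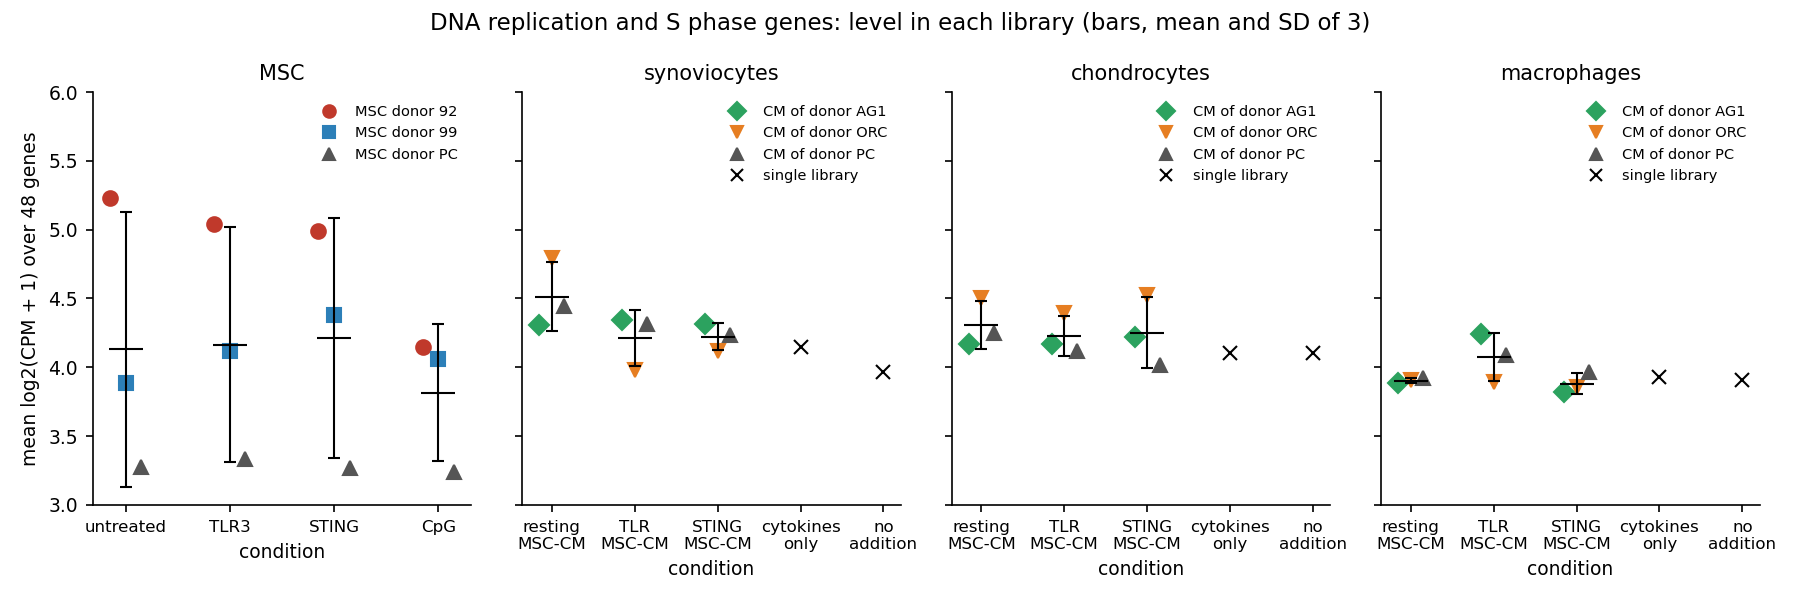
Mean log2(CPM + 1) of the members in each of the 45 libraries, by cell type and condition, with 1 point per library, colours for the donor, and bars for the mean and SD of 3. MSC of donor 92 sat highest and those of donor PC lowest in each condition, the synoviocytes with resting CM of donor ORC stood above the other 10 synoviocyte libraries, and the macrophages with TLR-MSC-CM of donor AG1 above the other 10 macrophage libraries.

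Among the MSC, the donor was the main axis along which replication genes varied. The mean log2(CPM + 1) over the 48 members in the table was 5.23, 5.04, 4.99 and 4.15 in donor 92 (untreated, poly I:C, 2′3′-cGAMP and CpG, the order kept for MSC values from here on), 3.88, 4.12, 4.38 and 4.06 in donor 99, and 3.28, 3.34, 3.27 and 3.24 in donor PC. With the 4 conditions as a covariate, edgeR's quasi-likelihood test called 45 of the 46 members for donor at an adjusted p under 0.05. Donor 92 was highest for all 45, where 21.7% of the 15099 genes tested were called with 92 highest, and donor PC was lowest for all 45, where 16.3% of all genes were called with PC lowest. In bulk RNA, fewer cells in S phase and less of each mRNA per cell cannot be told apart. Each donor is 1 culture split over the conditions, so donor and culture cannot be told apart either.

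The 4 libraries of donor PC lay below all 8 others for 40 of the 46 members, against 7.38% of all genes, and the 4 of donor 92 lay above all 8 others for 10 members, against 11.4% of all genes. The member with the smallest p was RRM2, the small subunit of ribonucleotide reductase, which makes deoxynucleotides and which limits their supply. RRM2 stood at 149.6, 132, 107 and 49.1 CPM in donor 92, 29.1, 42.6, 60.5 and 38.7 in donor 99 and 11.2, 13.9, 9.79 and 10.1 in donor PC. It was -3.22 on the log2 scale in donor PC relative to donor 92 and -1.30 in donor 99 relative to 92 (edgeR adjusted p = 2.42e-05). All donor 92 libraries exceeded those of donor PC, while the CpG library of donor 92 fell among those of donor 99.

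Of the origin licensing factors, CDC6, the ATPase that loads the MCM ring, was at 23.3, 20.7, 15.3 and 7.29 CPM in donor 92, 6.67, 5.38, 7.67 and 8.57 in donor 99 and 3.05, 2.8998, 1.99 and 2.95 in donor PC. Its partner CDT1 was at 53.4, 41.9, 34.5 and 15.7 CPM in donor 92, 13.9, 23.7, 28.6 and 19.6 in donor 99 and 5.93, 6.75, 5.55 and 6.65 in donor PC. For both, the untreated, poly I:C and 2′3′-cGAMP libraries of donor 92 stood above the same conditions of the other donors, and the PC libraries were lowest. GMNN, geminin, which blocks CDT1 after licensing, was at 41.2, 32.3, 29.3 and 21.3 CPM in donor 92, 21.6, 30.5, 39.01 and 20.8 in donor 99 and 15.9, 15.003, 18.7 and 15.6 in donor PC, where donors 92 and 99 overlapped. ORC1, the largest origin recognition subunit, was among the 6 members with the smallest p, at 15.6, 13.3, 12.3 and 4.47 CPM in donor 92, 4.38, 3.82, 4.95 and 4.302 in donor 99 and 1.91, 1.33, 1.28 and 1.27 in donor PC, with donor PC at -2.92 on the log2 scale relative to donor 92 (edgeR adjusted p = 4.08e-05).

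The helicase genes had wide spreads between donors. MCM2, a subunit of the MCM ring, was at 138, 116, 121 and 48.4 CPM in donor 92, 39.5, 47.6, 64.3 and 45.2 in donor 99 and 19.1, 21.9, 19.5 and 19.7 in donor PC. MCM5, another ring subunit, was at 300.5, 229, 201 and 101 CPM in donor 92, 61.8, 107, 128 and 83.3 in donor 99 and 29.5, 36.5, 32.2 and 27.9 in donor PC. For both, the lowest donor 92 library was the one with CpG, which in MCM2 and MCM5 lay within the range of donor 99. MCM6 was at 244, 218, 190.3 and 115 CPM in donor 92, 70.4, 84.3, 83.9 and 90.4 in donor 99 and 46.9, 45.2, 42.9 and 47.9 in donor PC; of the ring subunits it had the smallest p for donor (edgeR adjusted p = 2.73e-05). CDC45, which tethers the ring to the GINS complex, was at 36.4, 30.1, 27.8 and 11.04 CPM in donor 92, 6.299, 9.15, 14.8 and 9.43 in donor 99 and 2.66, 2.78, 2.33 and 2.35 in donor PC. GINS2, of that complex, was at 14.6, 10.1, 10.7 and 5.66 CPM in donor 92, 3.31, 6.37, 6.39 and 5.82 in donor 99 and 2.17, 2.22, 2.53 and 1.82 in donor PC. For CDC45, donor PC stood at -3.32 on the log2 scale relative to donor 92. The only member that was not called for donor was GINS3, a further subunit of the same complex, at 16.03, 15.2, 15.3 and 9.61 CPM in donor 92, 12.7, 15.8, 13.5 and 14.2 in donor 99 and 11.7, 10.8, 11.6 and 13.2 in donor PC, where all 3 donors overlapped (edgeR adjusted p = 0.368).

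On the synthesis side, PCNA, the sliding clamp, was at 134, 104, 107 and 49.6 CPM in donor 92, 56.6, 88.7, 119 and 57.9 in donor 99 and 29.1, 35.7, 44.01 and 31.3 in donor PC. In donor 99 it was highest with 2′3′-cGAMP, where it passed the same condition of donor 92. POLE2, the second subunit of polymerase epsilon, was at 13.8, 9.87, 8.199 and 4.64 CPM in donor 92, 4.32, 4.52, 3.44 and 3.29 in donor 99 and 2.496, 1.73, 2.02 and 2.29 in donor PC. LIG1, which seals Okazaki fragments, was at 86.7, 77.97, 76.1 and 46.6 CPM in donor 92, 32.1, 39.6, 49.9 and 35.3 in donor 99 and 20.2, 21.3, 23.1 and 20.2 in donor PC, with the libraries of donor PC lowest throughout (edgeR adjusted p = 2.50e-05). Among the nucleotide enzymes, TYMS, which makes thymidylate, was at 128, 94.9, 115 and 58.2 CPM in donor 92, 63.02, 94.9, 137 and 70.7 in donor 99 and 39.2, 44.3, 54.1 and 41.4 in donor PC, and TK1, which salvages thymidine, was at 157, 133, 118 and 65.3 CPM in donor 92, 47.3, 67.6, 83.05 and 61.4 in donor 99 and 28.1, 34.9, 30.6 and 29.6 in donor PC. TYMS in the 2′3′-cGAMP library of donor 99 was the highest value of that gene in any MSC library, and for TK1 the highest was the untreated library of donor 92.

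Of the regulators, E2F1, which switches on S phase genes, was at 32.6, 28.4, 27.2 and 11.3 CPM in donor 92, 8.25, 6.599, 9.96 and 9.55 in donor 99 and 3.69, 3.44, 3.16 and 4.19 in donor PC. CCNE2, the cyclin that activates CDK2, was at 5.79, 5.93, 7.23 and 2.89 CPM in donor 92, 1.98, 1.94, 2.72 and 2.05 in donor 99 and 1.36, 1.57, 1.05 and 1.49 in donor PC. UHRF1, which reads half-methylated DNA behind the fork, was at 188, 177, 166 and 67.1 CPM in donor 92, 49.7, 56.8, 83.2 and 62.7 in donor 99 and 22.8, 30.5, 22.6 and 21.7 in donor PC, with donor PC at -2.57 on the log2 scale relative to donor 92 (edgeR adjusted p = 5.02e-05). In E2F1 the CpG library of donor 92 stood close to donor 99 and the other donor 92 libraries stood well above it. The highest of the 12 MSC libraries was the untreated library of donor 92 for 37 members, the 2′3′-cGAMP library of 92 for 6, the poly I:C library of 92 for 2 and the 2′3′-cGAMP library of donor 99 for 1.

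**Figure D2:**
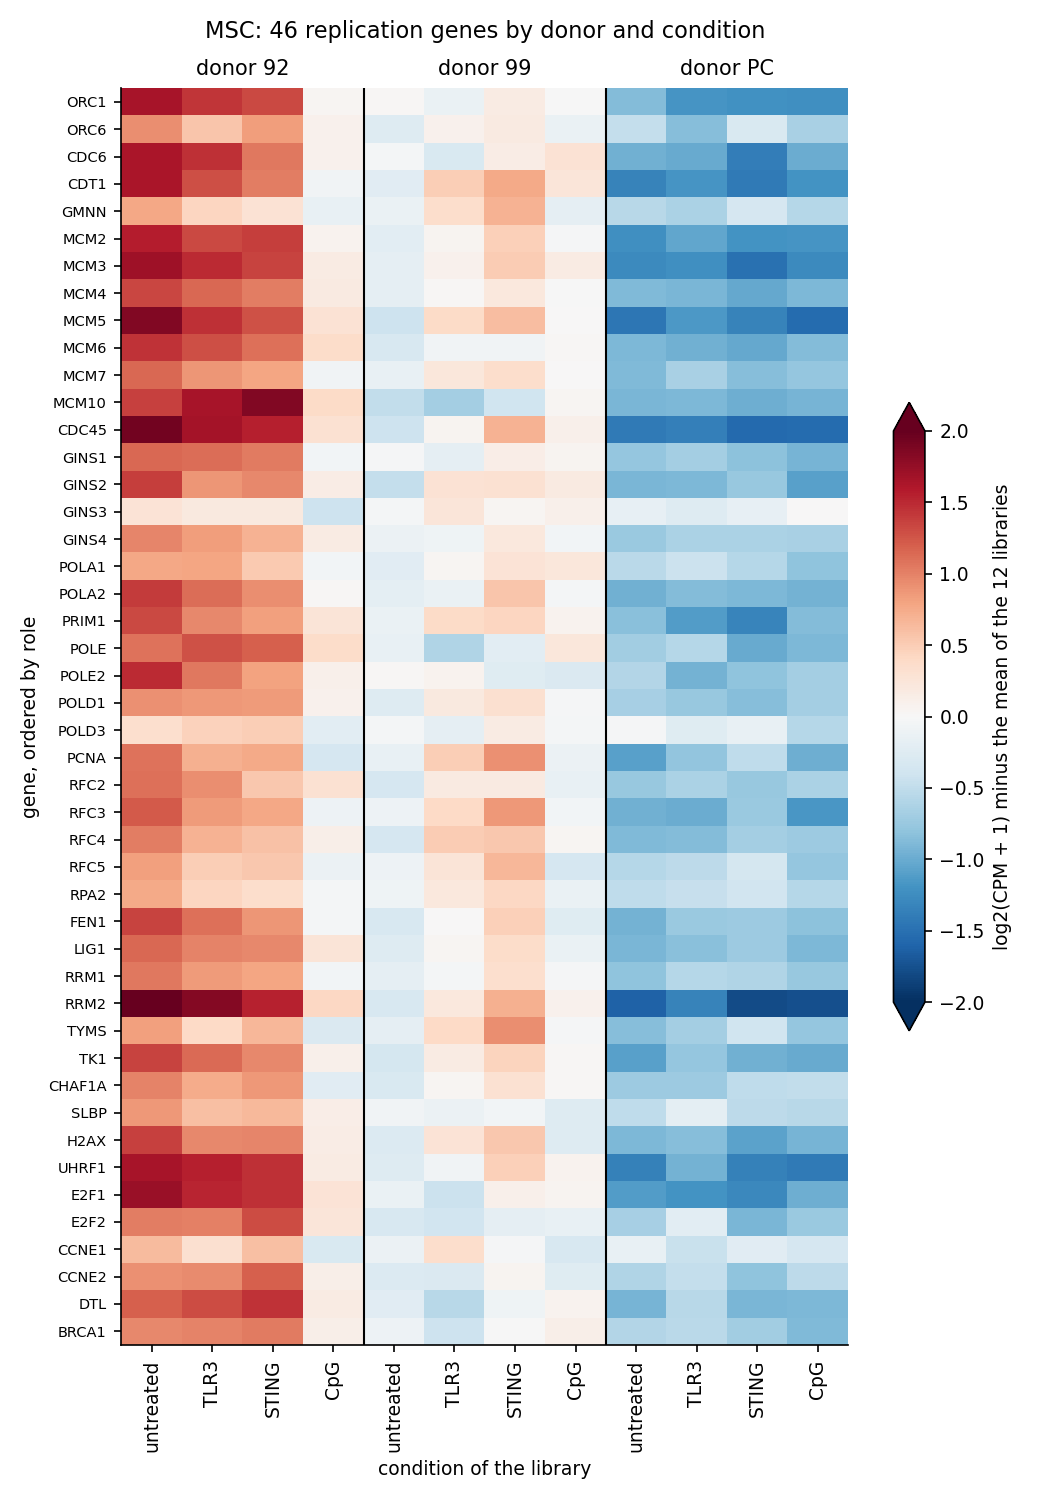
Heat map of the 46 tested members (rows, by role) in the 12 MSC libraries (columns, by donor and condition), coloured by log2(CPM + 1) minus the mean of the 12 libraries, red above and blue below it. Donor 92 is red in all conditions but CpG, donor PC is blue throughout, and donor 99 lies between, with its highest value in the 2′3′-cGAMP library for 35 members.

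The comparison of poly I:C with untreated MSC asks how activation through TLR3 alters the donor cells. No member passed an adjusted p under 0.05 in edgeR, 0% of the 14872 genes tested did, and at an unadjusted p under 0.05 the count was 0 members against 1.15% of all genes. DESeq2 called 52 genes and no member. No interferon-stimulated gene passed in the edgeR fit either, so 0 called members does not show that the members were unchanged. The median log2 fold change of the members was -0.01, with 20 of 46 higher, and the values ran from -0.32 in POLE2 to 0.22 in MCM10. The donors moved apart: the median change per donor in log2(CPM + 1) was -0.22 in donor 92 with 7 members higher, 0.29 in donor 99 with 34 higher, and 0.05 in donor PC with 32 higher. Just 4 members had the same sign in all 3 donors, 1 higher and 3 lower, where 959 and 1353 of the 14872 genes were. POLA1, the catalytic subunit of polymerase alpha, was at 22.4, 22.5, 18.5 and 12.1 CPM in donor 92, 10.7, 13.04, 15.5 and 14.9 in donor 99 and 8.39, 9.08, 8.19 and 6.79 in donor PC, and its log2 fold change was 0.14 (SE 0.49) (edgeR unadjusted p = 0.782). ORC1 and E2F1 were lower in each donor, with log2 fold changes of -0.21 (SE 1.07) and -0.18 (SE 1.06). Both lay far within their errors, which in this fit without a donor block include the spread between donors. With donor as a block, the paired fit, the median was 0.07 with 34 members higher and 0 called. Since the donor 92 library with poly I:C lacked the interferon response, the comparison was also fitted without donor 92, and there the median was 0.24 with 36 of 46 higher, 0 members at an unadjusted p under 0.05 and 0 called.

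With 2′3′-cGAMP, no member passed an adjusted p under 0.05 in edgeR, as for 0% of all genes, and 0 members had an unadjusted p under 0.05, against 2.10% of all genes. Interferon-stimulated genes stood at a mean log2(CPM + 1) of 7.21 to 8.15 with 2′3′-cGAMP, against 2.72 to 3.15 untreated. None of them passed in this fit without a donor block either, so 0 called members does not show that the members were unchanged. DESeq2 called 95 genes and 0 members. The median log2 fold change was 0.04 with 31 of 46 higher. Donor 99 was the one with the clearest change, a median of 0.51 in log2(CPM + 1) with 44 of 46 members higher. Donor 92 had a median of -0.30 with 7 higher and donor PC one of -0.02 with 21 higher. POLE2 was lower in all 3 donors (log2 fold change -0.56 (SE 0.83), edgeR unadjusted p = 0.521) and DTL, the receptor through which a ubiquitin ligase removes CDT1 in S phase, was higher in all 3 (0.27 (SE 0.93), unadjusted p = 0.781), at 12.7, 13.9, 15.4 and 5.71 CPM in donor 92, 4.12, 3.096, 4.67 and 5.28 in donor 99 and 2.14, 3.08, 2.19 and 2.21 in donor PC. Under the donor block the median was 0.14 with 38 members higher, 1 member at an unadjusted p under 0.05 and 0 called, and without donor 92 the median was 0.38 with 44 of 46 higher, 0 members at an unadjusted p under 0.05 and 0 called.

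STING against TLR3 activation gave 0 members at an adjusted p under 0.05 in edgeR (0% of all genes), 0 in DESeq2 and 0 at an unadjusted p under 0.05 (0.242% of all genes), with a median of 0.05 and 30 of 46 higher. TYMS was higher with 2′3′-cGAMP than with poly I:C in each donor, as the values above show, at a log2 fold change of 0.38 (SE 0.51) (edgeR unadjusted p = 0.471). POLD3, a subunit of polymerase delta, was also higher in each donor, at 12.2, 13.4, 13.9 and 8.05 CPM in donor 92, 9.27, 8.27, 10.8 and 9.198 in donor 99 and 9.399, 7.91, 8.45 and 6.07 in donor PC, with a log2 fold change of 0.16 (SE 0.30). ORC6, the smallest origin recognition subunit, was at 10.9, 8.26, 10.2 and 5.71 CPM in donor 92, 4.24, 5.65, 6.11 and 4.75 in donor 99 and 3.53, 2.497, 4.07 and 3.01 in donor PC, with 0.32 (SE 0.59). All 3 differences lay within their errors, which in this fit without a donor block include the spread between donors.

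For CpG, all 46 members had a log2 fold change below 0, from -1.13 in ORC1 to -0.13 in GINS3, with a median of -0.55. None passed an adjusted p under 0.05 in edgeR (0% of 15099 genes), none did in DESeq2, and 0 had an unadjusted p under 0.05, against 0.305% of all genes. The donors differed. In donor 92 the CpG library was the lowest of the 4 for all 46 members, with a median change of -1.12 in log2(CPM + 1), while in donor 99 the median was 0.18 with 38 higher and in donor PC -0.02 with 19 higher. CCNE1, the other cyclin E, was lower in each donor, at 14.6, 11.6, 14.3 and 7.19 CPM in donor 92, 8.305, 11.9, 8.98 and 7.12 in donor 99 and 8.13, 6.38, 7.65 and 7.04 in donor PC, with a log2 fold change of -0.54 (SE 0.34) (edgeR unadjusted p = 0.14). POLD3 and RFC5, a subunit of the loader that places PCNA on DNA, were also lower in each donor, with -0.41 (SE 0.28) and -0.58 (SE 0.42). RFC5 was at 40.8, 32.3, 33.2 and 20.7 CPM in donor 92, 20.9, 27.3, 36.3 and 17.7 in donor 99 and 14.9, 15.4, 17.5 and 12.9 in donor PC. With donor as a block the median was -0.34, with 5 members at an unadjusted p under 0.05 and 0 called. The 0.305% above is the share in the fit without a block. Without donor 92 the median was 0.14 with 37 of 46 higher, 0 members at an unadjusted p under 0.05 and 0 called.

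In synoviocytes, the comparison of TLR-MSC-CM with resting MSC-CM asks whether activation of the MSC alters what their medium does to lining cells. Values are given from here on in the order of the CM donors AG1, ORC and PC. The members' mean log2(CPM + 1) was 4.31, 4.79 and 4.44 with resting MSC-CM, 4.35, 3.98 and 4.32 with TLR-MSC-CM, and 4.31, 4.12 and 4.23 with STING-MSC-CM. The resting CM of donor ORC gave the highest value of the 3 resting libraries, and TLR-MSC-CM of the same donor the lowest of all 9. The resting ORC library was the highest of the 9 for 44 of 46 members.

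All 46 members had a log2 fold change below 0 with TLR-MSC-CM, with a median of -0.35, where the median of all 14584 genes was near 0. No member was called at an adjusted p under 0.05 in edgeR, nor was any gene (0%), and DESeq2 called 2 genes and no member. At an unadjusted p under 0.05, 29 members were lower, against 5.11% of all genes, and DESeq2 gave 28. Per CM donor, the median change in log2(CPM + 1) was 0.03 with AG1 and 30 members higher, -0.89 with ORC and 0 higher, and -0.15 with PC and 10 higher. Lower values in all 3 donors held for 13 members, against 12.2% of all genes, and for 9 members all TLR-MSC-CM libraries lay below all resting ones, against 5.03% of all genes. The 29 members at an unadjusted p under 0.05 became 9 without the resting ORC library, with a median of -0.17, and 11 without the TLR-MSC-CM library of ORC. With all 3 ORC libraries left out, the median was -0.05 with 13 of 46 higher, 5 lower at an unadjusted p under 0.05 and 0 called.

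The member with the smallest p was POLA2, the regulatory subunit of polymerase alpha, at 16.4, 23.2 and 17.8 CPM with resting MSC-CM, 14.7, 12.4 and 14.1 with TLR-MSC-CM and 13.3, 13.2 and 14.1 with STING-MSC-CM. All 3 TLR-MSC-CM values lay below all 3 resting ones, and the log2 fold change was -0.49 (SE 0.12) (edgeR unadjusted p = 0.00122, adjusted p = 0.494). E2F1 was at 19.9, 30.4 and 20.3 CPM with resting MSC-CM, 16.96, 13.3 and 16.3 with TLR-MSC-CM and 16.8, 14.4 and 17.6 with STING-MSC-CM, also without overlap between resting and TLR-MSC-CM, with -0.61 (SE 0.15) (edgeR unadjusted p = 0.00131, the same adjusted p). RRM2 was at 86.3, 109 and 92.7 CPM with resting MSC-CM, 83.1, 66.3 and 79.2 with TLR-MSC-CM and 73.3, 74.8 and 74.6 with STING-MSC-CM, and its log2 fold change was -0.35 (SE 0.10). All 3 stood lowest in the ORC library with TLR-MSC-CM.

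Of the licensing factors, CDC6 was at 9.802, 17.1 and 11.8 CPM with resting MSC-CM, 11.1, 7.51 and 10.8 with TLR-MSC-CM and 9.74, 7.95 and 9.62 with STING-MSC-CM. CDT1 was at 15.5, 24.2 and 16.4 CPM with resting MSC-CM, 16.7, 11.1 and 15.1 with TLR-MSC-CM and 15.3, 14.3 and 13.9 with STING-MSC-CM. For both, the AG1 library with TLR-MSC-CM was above its resting library, so the groups overlapped. GMNN was at 13.7, 16.7 and 16.1 CPM with resting MSC-CM, 12.2, 13.04 and 13.4 with TLR-MSC-CM and 14.98, 13.5 and 14.4 with STING-MSC-CM, where the resting libraries all exceeded those with TLR-MSC-CM. In the helicase, MCM2 was at 50.3, 92.6 and 60.1 CPM with resting MSC-CM, 60.6, 41.6 and 54.3 with TLR-MSC-CM and 55.7, 43.6 and 47.2 with STING-MSC-CM. MCM5 was at 82.6, 138 and 92.7 CPM with resting MSC-CM, 92.5, 61.4 and 83.4 with TLR-MSC-CM and 82.8, 64.2 and 70.7 with STING-MSC-CM. For both, the ORC library was the highest of the 9 with resting MSC-CM and the lowest with TLR-MSC-CM, and the AG1 library was higher with TLR-MSC-CM than with resting MSC-CM. CDC45 was at 16.2, 27.2 and 15.4 CPM with resting MSC-CM, 17.6, 12.01 and 15.8 with TLR-MSC-CM and 18.4, 11.8 and 15.4 with STING-MSC-CM. GINS2 was at 5.699, 6.95 and 5.39 CPM with resting MSC-CM, 5.43, 2.78 and 6.58 with TLR-MSC-CM and 5.86, 4.14 and 4.79 with STING-MSC-CM, and in both the groups overlapped through the AG1 and PC libraries.

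For synthesis, PCNA was at 48.2, 68.3 and 58.3 CPM with resting MSC-CM, 48.4, 43.5 and 49.5 with TLR-MSC-CM and 48.8, 46.9 and 46.7 with STING-MSC-CM, with AG1 level between resting and TLR-MSC-CM and both other donors lower. POLE2 was at 3.32, 5.62 and 3.53 CPM with resting MSC-CM, 4.35, 2.402 and 3.86 with TLR-MSC-CM and 4.69, 3.03 and 3.74 with STING-MSC-CM. LIG1 was at 41.2, 55.95 and 42.8 CPM with resting MSC-CM, 40.2, 30.4 and 37.1 with TLR-MSC-CM and 37.4, 37.3 and 37.6 with STING-MSC-CM. POLE2 was higher in AG1 and PC and lower in ORC, whereas LIG1 was lower in each donor and did not overlap. In nucleotide supply, TYMS was at 50.6, 65.3 and 52.7 CPM with resting MSC-CM, 54.4, 45.8 and 50.1 with TLR-MSC-CM and 51.2, 49.6 and 46.8 with STING-MSC-CM. TK1 was at 59.9, 88.96 and 64.7 CPM with resting MSC-CM, 64.4, 42.8 and 55.9 with TLR-MSC-CM and 55.6, 51.5 and 58.04 with STING-MSC-CM, with AG1 higher and the others lower in both. CCNE2 was at 5.08, 7.82 and 7.44 CPM with resting MSC-CM, 4.97, 4.08 and 5.24 with TLR-MSC-CM and 5.51, 4.84 and 5.23 with STING-MSC-CM, lower in each donor though by little in AG1. UHRF1 was at 110.3, 181 and 119 CPM with resting MSC-CM, 113, 85.4 and 110.001 with TLR-MSC-CM and 103, 89.001 and 102 with STING-MSC-CM, with the ORC resting library far above the rest.

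**Figure D3:**
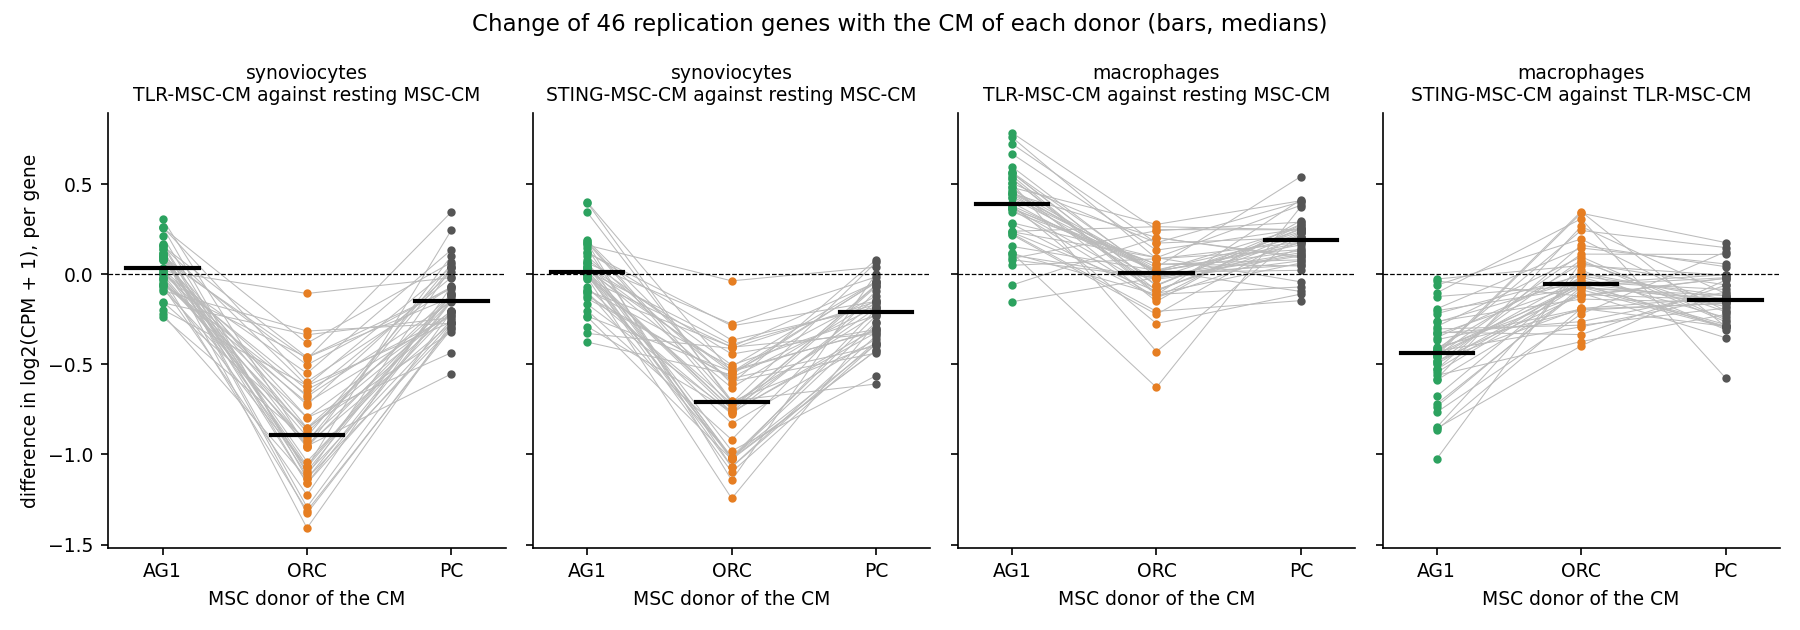
Difference in log2(CPM + 1) of each of the 46 tested members between 2 CM of the same MSC donor, in 4 comparisons, with 1 point per gene, grey lines that join a gene across donors and bars at the medians. In synoviocytes the points for donor ORC lie below 0 for every member with both activated CM, with medians of -0.89 and -0.71, and those for AG1 centre on 0.03 and 0.01. In macrophages with TLR-MSC-CM, AG1 has a median of 0.39 and ORC one of 0.01.

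STING-MSC-CM gave values close to those of TLR-MSC-CM in synoviocytes, and both comparisons use the same 3 resting libraries. The median log2 fold change was -0.36 with 1 member, RPA2, above 0, and no member passed an adjusted p under 0.05 in edgeR (0% of all genes) or in DESeq2. Unadjusted, 27 members were lower, against 3.95% of all genes, and DESeq2 gave 28. The median change per donor was 0.01 with AG1 and 27 members higher, -0.71 with ORC and 0 higher, and -0.21 with PC and 4 higher. For 19 members the value was lower in all 3 donors, against 12.8% of all genes, and for 17 the libraries did not overlap, against 6.82% of all genes. POLA2 again had the smallest p (-0.51 (SE 0.12), edgeR unadjusted p = 0.000928, adjusted p = 0.634), followed by RRM2 (-0.38 (SE 0.10)) and H2AX, the histone variant that marks broken DNA. H2AX was at 42.99, 47.2 and 40.998 CPM with resting MSC-CM, 41.05, 33.97 and 37.4 with TLR-MSC-CM and 34.03, 35.2 and 36.8 with STING-MSC-CM, with all 3 STING-MSC-CM values under all 3 resting ones and a log2 fold change of -0.31 (SE 0.08). The 27 became 7 without the resting ORC library, with a median of -0.17, and 11 without the STING-MSC-CM library of ORC, and without donor ORC the median was -0.13 with 7 of 46 higher, 11 lower at an unadjusted p under 0.05 and 0 called.

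Between the 2 activated CM, no member differed at an adjusted p under 0.05 in synoviocytes (0% of all genes in edgeR, 0 members in DESeq2), and 0 did at an unadjusted p under 0.05, against 2.02% of all genes. The median was -0.00 with 22 members higher. RFC3, a clamp loader subunit, was higher with STING-MSC-CM in each donor, at 5.96, 8.54 and 7.86 CPM with resting MSC-CM, 5.897, 3.93 and 5.04 with TLR-MSC-CM and 6.86, 4.71 and 7.48 with STING-MSC-CM, with a log2 fold change of 0.37 (SE 0.20) (edgeR unadjusted p = 0.0806). GMNN and RPA2, a subunit of the complex that coats single-stranded DNA, followed with 0.16 (SE 0.10) and 0.10 (SE 0.06). RPA2 was at 52.1, 54.2 and 54.1 CPM with resting MSC-CM, 52.8, 50.3 and 53.4 with TLR-MSC-CM and 58.4, 52.8 and 55.6 with STING-MSC-CM, a narrow range. By the donor of the CM, 0 members and 0% of genes were called in synoviocytes, though 13 members were called once the resting ORC library was left out. The calls over all genes in this donor test moved too, from 0 to 710 with single libraries left out. The 13 thus cannot be set against the 0% of the fit with every library.

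Mitosis genes, a list of 19 measured genes such as CCNB1 and PLK1, were lower along with the replication genes: all 19 had a log2 fold change below 0 with TLR-MSC-CM (median -0.26, 13 at an unadjusted p under 0.05) and all 19 with STING-MSC-CM (median -0.19, 5). Among 33 further replication factors outside the module, such as RPA1 and ORC2, 29 were lower with TLR-MSC-CM (median -0.25, 14 at an unadjusted p under 0.05) and 31 with STING-MSC-CM (median -0.24, 12). None of either list passed the adjusted threshold. The 19 cyclin D, CDK inhibitor and pocket protein genes had medians near 0. The TLR-MSC-CM library of ORC also held the highest interferon-stimulated gene level of the synoviocyte libraries with CM, a mean log2(CPM + 1) of 4.28, and its part in the result was not tested.

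In chondrocytes with the CM of activated MSC, the members were close to their level with resting CM, and the libraries separated by the donor of the CM instead. In every joint cell type, the donor of the CM and any handling that its libraries shared cannot be told apart. The mean log2(CPM + 1) was 4.17, 4.50 and 4.25 with resting MSC-CM, 4.17, 4.39 and 4.12 with TLR-MSC-CM, and 4.22, 4.52 and 4.01 with STING-MSC-CM. With the 3 kinds of CM as a covariate, edgeR called 31 of 46 members for the donor of the CM. ORC was highest for 30 of them, where 19.0% of 14304 genes were called with ORC highest, and PC was lowest for 21, where 9.81% of all genes were called with PC lowest. All 3 ORC libraries exceeded the other 6 for 27 members, against 18.8% of all genes. They lay below the other 6 for 1 member, against 18.3% of all genes, and the PC libraries lay below the other 6 for 5 members, against 3.64%. Chondrocyte markers had a mean log2(CPM + 1) of 2.34 to 2.57 in the ORC libraries and 1.84 to 2.05 in the other 6, mitosis genes were at 6.07 to 6.18 with ORC against 5.50 to 5.82, and fibroblast and stromal markers at 9.70 to 9.80 against 9.16 to 9.38. Of these lists, 3 of 8 chondrocyte markers, 18 of 19 mitosis genes and 7 of 9 fibroblast and stromal markers were called for the donor of the CM. Of all 14304 genes, 11.4% were called with AG1 highest, 19.0% with ORC highest and 9.69% with PC highest. The 3 of 8 chondrocyte markers thus did not exceed the share of all genes called for the donor of the CM. The mean level of each list was higher in the ORC libraries, as was that of the members. The part of these lists in the result was not tested.

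The smallest p was that of UHRF1, at 109.7, 174 and 101 CPM with resting MSC-CM, 102, 146 and 98.5 with TLR-MSC-CM and 102, 178 and 88.3 with STING-MSC-CM. The ORC library was the highest under each CM, at 0.67 on the log2 scale relative to AG1 (edgeR adjusted p = 6.57e-07). BRCA1, which repairs breaks and stalled forks by recombination, was at 7.14, 18.4 and 9.498 CPM with resting MSC-CM, 7.63, 14.6 and 8.03 with TLR-MSC-CM and 8.15, 16.3 and 7.49 with STING-MSC-CM, with ORC at 1.10 relative to AG1 (adjusted p = 2.11e-06, edgeR). TK1 was at 51.9, 76.6 and 51.8 CPM with resting MSC-CM, 49.8, 68.03 and 47.96 with TLR-MSC-CM and 51.1, 83.8 and 41.4 with STING-MSC-CM. RRM2 was at 78.4, 120.4 and 85.5 CPM with resting MSC-CM, 80.4, 107 and 73.1 with TLR-MSC-CM and 82.9, 109 and 71.7 with STING-MSC-CM, where ORC was highest throughout. MCM7, a ring subunit, was at 146, 201 and 149 CPM with resting MSC-CM, 150.4, 192 and 147 with TLR-MSC-CM and 149.8, 197 and 137 with STING-MSC-CM. MCM5 was at 80.5, 110.4 and 77.8 CPM with resting MSC-CM, 76.3, 93.6 and 70.6 with TLR-MSC-CM and 78.4, 125 and 68.2 with STING-MSC-CM (edgeR adjusted p = 3.57e-05). RPA2 was the 1 member called with ORC lowest, at 65.5, 50.7 and 69.6 CPM with resting MSC-CM, 73.4, 55.2 and 66.9 with TLR-MSC-CM and 70.9, 56.02 and 68.1 with STING-MSC-CM, with ORC at -0.37 on the log2 scale relative to AG1.

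MCM2 was at 40.9, 65.4 and 42.8 CPM with resting MSC-CM, 39.8, 48.03 and 41.3 with TLR-MSC-CM and 43.3, 65.02 and 34.5 with STING-MSC-CM, with ORC high under resting and STING-MSC-CM and nearer the others under TLR-MSC-CM. CDC6 was at 9.71, 13.9 and 11.2 CPM with resting MSC-CM, 9.87, 12.6 and 8.905 with TLR-MSC-CM and 9.62, 14.9 and 7.41 with STING-MSC-CM. CDT1 was at 11.6, 17.5 and 13.4 CPM with resting MSC-CM, 10.7, 13.7 and 10.6 with TLR-MSC-CM and 14.2, 20.03 and 9.89 with STING-MSC-CM. In the PC libraries CDT1 was lower with both activated CM than with resting MSC-CM, and in the other donors it was higher with STING-MSC-CM. CDC45 was at 13.8, 19.9 and 15.5 CPM with resting MSC-CM, 14.9, 17.8 and 11.8 with TLR-MSC-CM and 15.1, 19.2 and 10.1 with STING-MSC-CM. GINS2 was at 4.26, 6.198 and 4.55 CPM with resting MSC-CM, 4.58, 7.49 and 4.21 with TLR-MSC-CM and 4.47, 7.11 and 4.19 with STING-MSC-CM. POLE2 was at 2.06, 4.51 and 3.32 CPM with resting MSC-CM, 3.08, 3.87 and 2.99 with TLR-MSC-CM and 2.71, 4.65 and 2.77 with STING-MSC-CM. LIG1 was at 44.2, 54.3 and 39.5 CPM with resting MSC-CM, 40.4, 46.3 and 40.5 with TLR-MSC-CM and 42.7, 49.3 and 37.3 with STING-MSC-CM, with ORC highest in each CM for both. TYMS was at 46.4, 64.4 and 47.98 CPM with resting MSC-CM, 45.9, 64.4 and 44.02 with TLR-MSC-CM and 53.3, 60.3 and 48.01 with STING-MSC-CM. E2F1 was at 15.5, 17.8 and 13.2 CPM with resting MSC-CM, 16.02, 15.3 and 13.6 with TLR-MSC-CM and 16.4, 17.4 and 10.8 with STING-MSC-CM. The smallest donor differences were those of CCNE1, CCNE2, RRM1 and GMNN. CCNE2 was at 4.76, 5.59 and 6.603 CPM with resting MSC-CM, 5.53, 4.57 and 5.32 with TLR-MSC-CM and 5.599, 5.97 and 4.94 with STING-MSC-CM. GMNN was at 14.9, 16.6 and 17.1 CPM with resting MSC-CM, 16.8, 14.3 and 13.8 with TLR-MSC-CM and 15.8, 15.9 and 13.9 with STING-MSC-CM. PCNA was at 48.5, 56.8 and 52.04 CPM with resting MSC-CM, 50.6, 54.3 and 46.7 with TLR-MSC-CM and 58.1, 53.8 and 46.4 with STING-MSC-CM, and in all 3 the donors overlapped. None of the 3 was called for donor.

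With TLR-MSC-CM against resting MSC-CM, 0 members were called in chondrocytes at an adjusted p under 0.05 (0% of all genes in edgeR, 0 in DESeq2) and 0 at an unadjusted p under 0.05, against 0.559% of all genes. The median was -0.11 with 6 members higher, and 17 members were lower in all 3 donors, against 10.7% of all genes. With the donor of the CM as a block, the paired fit, 2 members had an unadjusted p under 0.05 and 0 were called here, and 1 and 0 in each comparison with STING-MSC-CM. CCNE1 was at 8.99, 8.85 and 8.85 CPM with resting MSC-CM, 7.84, 6.83 and 8.05 with TLR-MSC-CM and 7.902, 9.15 and 6.82 with STING-MSC-CM, with all 3 TLR-MSC-CM values below all resting ones (log2 fold change -0.24 (SE 0.13), edgeR unadjusted p = 0.114). GINS1, a GINS subunit, was at 11.7, 9.94 and 10.3 CPM with resting MSC-CM, 9.795, 9.14 and 9.67 with TLR-MSC-CM and 10.2, 9.11 and 9.29 with STING-MSC-CM and had -0.16 (SE 0.11). RRM1, the large reductase subunit, was at 104, 107 and 113 CPM with resting MSC-CM, 97.3, 105 and 102 with TLR-MSC-CM and 107, 114 and 97.5 with STING-MSC-CM and had -0.10 (SE 0.08). Without donor ORC, the median was -0.07 with 9 of 46 higher, 0 members at an unadjusted p under 0.05 and 0 called.

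STING-MSC-CM likewise gave 0 called members in chondrocytes (0% of all genes in edgeR, 0 in DESeq2), 0 at an unadjusted p under 0.05 against 0.909% of all genes, and a median of -0.06 with 13 members higher. The PC library had a median change of -0.23 in log2(CPM + 1) with 1 member higher, against 0.04 for AG1 and 0.03 for ORC. POLA1 was at 15.2, 16.1 and 16.1 CPM with resting MSC-CM, 13.6, 18.5 and 14.8 with TLR-MSC-CM and 13.2, 14.6 and 13.2 with STING-MSC-CM, lower in each donor (-0.21 (SE 0.12), edgeR unadjusted p = 0.122). GINS1 had -0.16 (SE 0.11) and PRIM1, the primase that starts each strand, had -0.22 (SE 0.20), at 8.15, 11.1 and 8.39 CPM with resting MSC-CM, 7.38, 11.02 and 8.46 with TLR-MSC-CM and 7.65, 9.22 and 6.85 with STING-MSC-CM. Between STING-MSC-CM and TLR-MSC-CM, 0 members were called (0% of all genes in edgeR, 0 in DESeq2) and 0 passed unadjusted, against 0.811% of all genes, with a median of 0.06. POLA1 was lower with STING-MSC-CM in each donor (-0.19 (SE 0.12)), and SLBP, which binds histone mRNA, was higher (0.15 (SE 0.11)), as was MCM10, which helps to fire origins (0.21 (SE 0.21)), none past the unadjusted threshold. Mitosis genes were below 0 for all 19 with TLR-MSC-CM (median -0.13) and all 19 with STING-MSC-CM (median -0.16), and none passed the threshold.

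In macrophages, 43 of the 46 members had a log2 fold change above 0 with TLR-MSC-CM, though none passed the adjusted threshold. The members' mean log2(CPM + 1) was 3.88, 3.90 and 3.92 with resting MSC-CM, 4.24, 3.89 and 4.09 with TLR-MSC-CM, and 3.82, 3.86 and 3.96 with STING-MSC-CM. The AG1 and PC libraries with TLR-MSC-CM stood above every other macrophage library, and ORC with TLR-MSC-CM stood among the resting ones. AG1 with TLR-MSC-CM was the highest of the 9 libraries for 35 members, and PC with TLR-MSC-CM for 8.

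No member passed an adjusted p under 0.05 with TLR-MSC-CM (0% of 15052 genes in edgeR, 0 in DESeq2). At an unadjusted p under 0.05, 5 members were higher, against 1.35% of all genes, and DESeq2 gave 4. The median log2 fold change was 0.20. In AG1 the median change in log2(CPM + 1) was 0.39 with 44 members higher, in PC 0.19 with 41 higher, and in ORC 0.01 with 24 higher. Higher values in all 3 donors held for 21 members, against 13.6% of all genes, and for 7 the libraries did not overlap, against 3.15% of all genes. With the donor of the CM as a block, 17 members were higher at an unadjusted p under 0.05 and 0 were called. The 1.35% above is the share in the fit without a block and cannot be set against these 17. The 5 became 1 without the TLR-MSC-CM library of AG1, with a median of 0.09, 1 without that of PC or without the resting library of ORC, and 17 without the TLR-MSC-CM library of ORC, with a median of 0.30. Without donor AG1, the median was 0.09 with 39 of 46 higher, 3 higher at an unadjusted p under 0.05 and 0 called.

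POLA2 had the smallest p here too, at 11.8, 10.9 and 10.1 CPM with resting MSC-CM, 16.8, 13.4 and 13.7 with TLR-MSC-CM and 11.1, 10.1 and 11.6 with STING-MSC-CM, with all 3 TLR-MSC-CM values above all resting ones (log2 fold change 0.43 (SE 0.13), edgeR unadjusted p = 0.00823, adjusted p = 0.999). POLE, the catalytic subunit of polymerase epsilon, was at 14.7, 15.8 and 20.7 CPM with resting MSC-CM, 26.1, 19.003 and 24.7 with TLR-MSC-CM and 18.9, 18.3 and 22.3 with STING-MSC-CM. It was higher in each donor, though the ORC value with TLR-MSC-CM lay below the PC value with resting MSC-CM (0.45 (SE 0.16), edgeR unadjusted p = 0.0174). RRM2 was at 34.2, 37.9 and 44.7 CPM with resting MSC-CM, 54.9, 41.6 and 53.4 with TLR-MSC-CM and 32.6, 39.6 and 43.6 with STING-MSC-CM, again higher in each donor with overlap (0.36 (SE 0.14)). Among the licensing factors, ORC1 was at 9.22, 9.99 and 12.5 CPM with resting MSC-CM, 16.3, 10.7 and 13.9 with TLR-MSC-CM and 8.51, 9.23 and 11.2 with STING-MSC-CM. CDC6 was at 4.67, 3.96 and 5.23 CPM with resting MSC-CM, 7.3996, 3.97 and 5.47 with TLR-MSC-CM and 3.13, 4.21 and 4.597 with STING-MSC-CM. CDT1 was at 12.4, 11.7 and 12.3 CPM with resting MSC-CM, 16.6, 11.5 and 13.0004 with TLR-MSC-CM and 12.2, 10.9 and 11.7 with STING-MSC-CM. In all 3 the AG1 library with TLR-MSC-CM was the highest and the ORC library was level with resting.

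Among the helicase genes, MCM2 was at 44.5, 46.1 and 51.1 CPM with resting MSC-CM, 61.97, 46.9 and 59.1 with TLR-MSC-CM and 46.2, 43.3 and 53.5 with STING-MSC-CM. MCM5 was at 60.1, 62.4 and 60.5 CPM with resting MSC-CM, 89.3, 59.6 and 72.3 with TLR-MSC-CM and 60.9, 57.1 and 59.4 with STING-MSC-CM. CDC45 was at 6.62, 6.16 and 7.25 CPM with resting MSC-CM, 9.81, 7.08 and 9.896 with TLR-MSC-CM and 5.57, 6.61 and 7.89 with STING-MSC-CM. AG1 with TLR-MSC-CM exceeded all 8 other libraries for MCM2 and MCM5, and for CDC45 it was level with PC. GINS2 was at 1.899, 2.37 and 1.69 CPM with resting MSC-CM, 2.15, 1.18 and 2.49 with TLR-MSC-CM and 1.93, 1.698 and 1.34 with STING-MSC-CM, a low level without a common direction. PCNA was at 61.7, 50.5 and 58.7 CPM with resting MSC-CM, 75.4, 53.9 and 56.9 with TLR-MSC-CM and 53.7, 49.6 and 56.1 with STING-MSC-CM. LIG1 was at 31.7, 33.2 and 32.99 CPM with resting MSC-CM, 43.9, 33.5 and 33.5 with TLR-MSC-CM and 31.2, 29.2 and 30.6 with STING-MSC-CM. POLE2 was at 2.799, 3.27 and 3.57 CPM with resting MSC-CM, 3.95, 2.54 and 3.23 with TLR-MSC-CM and 2.69, 3.18 and 3.69 with STING-MSC-CM. Each was highest in AG1 with TLR-MSC-CM.

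TYMS was at 48.2, 33.8 and 35.6 CPM with resting MSC-CM, 57.004, 40.8 and 42.5 with TLR-MSC-CM and 44.1, 35.5 and 37.9 with STING-MSC-CM. TK1 was at 18.6, 18.4 and 19.6 CPM with resting MSC-CM, 24.2, 16.7 and 23.9 with TLR-MSC-CM and 16.9, 17.7 and 19.8 with STING-MSC-CM. TYMS was higher with TLR-MSC-CM in each donor and was highest in AG1 under every CM. E2F1 was at 6.55, 7.71 and 7.84 CPM with resting MSC-CM, 10.4, 7.63 and 8.602 with TLR-MSC-CM and 5.31, 5.55 and 8.39 with STING-MSC-CM. CCNE2 was at 3.797, 3.62 and 4.16 CPM with resting MSC-CM, 5.54, 4.32 and 4.495 with TLR-MSC-CM and 3.09, 4.28 and 4.06 with STING-MSC-CM. UHRF1 was at 40.8, 40.6 and 38.2 CPM with resting MSC-CM, 59.5, 37.5 and 51.3 with TLR-MSC-CM and 32.6, 38.1 and 41.3 with STING-MSC-CM. GMNN was at 25.5, 23.3 and 19.6 CPM with resting MSC-CM, 29.9, 19.9 and 23.1 with TLR-MSC-CM and 26.05, 22.1 and 24.1 with STING-MSC-CM, with no common direction. By the donor of the CM, TYMS and GINS4, a subunit of the GINS complex, were the 2 members called, both with AG1 highest, where 6.48% of all genes were called with AG1 highest. The edgeR adjusted p was 0.00399 for TYMS and 0.0113 for GINS4, which was at 19.7, 13.1 and 13.8 CPM with resting MSC-CM, 18.8, 15.2 and 14.9 with TLR-MSC-CM and 18.3, 13.9 and 14.6 with STING-MSC-CM.

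The AG1 library with TLR-MSC-CM differed in other ways as well. Its T and NK cell markers were at a mean log2(CPM + 1) of 5.54, against 5.09 with resting MSC-CM of AG1, its macrophage markers at 7.83 against 8.21, and its mitosis genes at 4.29 against 3.68. Over the 3 donors, 10 of 11 T and NK cell markers had a log2 fold change above 0 with TLR-MSC-CM (median 0.25), and all 19 mitosis genes did (median 0.32, 4 at an unadjusted p under 0.05). CD3E, a chain of the T cell receptor complex, was at 60.5 to 122 CPM across the macrophage libraries and at no more than 0.036 CPM in the other joint cells. The summed T and NK cell marker level was 600.03 to 815 CPM with resting MSC-CM, 646 to 931 with TLR-MSC-CM and 703 to 977 with STING-MSC-CM. Their part in the members' levels was not tested.

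**Figure D4:**
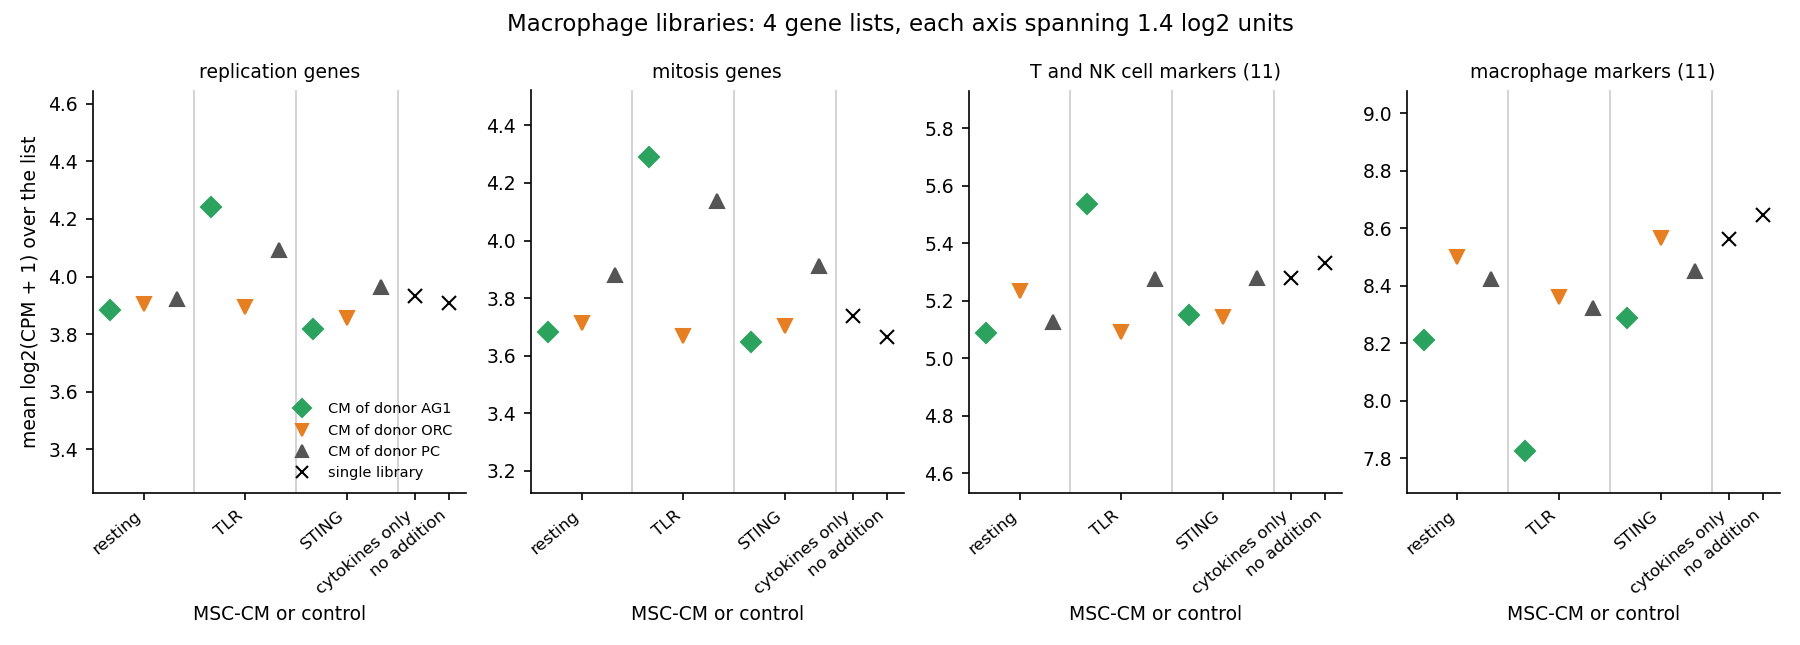
Mean log2(CPM + 1) of the members, of mitosis genes, of T and NK cell markers and of macrophage markers in the 11 macrophage libraries, by CM and coloured by the donor of the CM, with the same height of axis in each panel. In AG1 with TLR-MSC-CM the members, mitosis genes and T and NK cell markers are at their highest and the macrophage markers at their lowest.

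With STING-MSC-CM, macrophages kept their members near the resting level, with a median of -0.01, 20 of 46 higher, 0 called by edgeR (0% of all genes) or DESeq2, and 0 at an unadjusted p under 0.05 against 4.76% of all genes. With the CM donor as a block, 80 genes but 0 members passed the adjusted threshold, and 1 member had an unadjusted p under 0.05. POLA1 was higher in each donor, at 12.8, 14.5 and 13.5 CPM with resting MSC-CM, 18.9, 13.6 and 15.7 with TLR-MSC-CM and 13.6, 17.4 and 17.9 with STING-MSC-CM (0.27 (SE 0.15), edgeR unadjusted p = 0.104). ORC6 was lower in each, at 4.38, 3.92 and 3.73 CPM with resting MSC-CM, 4.99, 3.99 and 3.43 with TLR-MSC-CM and 3.46, 3.08 and 3.05 with STING-MSC-CM (-0.32 (SE 0.19)), and so was RFC2, a clamp loader subunit, at 27.8, 27.6 and 22.2 CPM with resting MSC-CM, 29.5, 27.2 and 24.1 with TLR-MSC-CM and 23.7, 22.2 and 21.01 with STING-MSC-CM (-0.21 (SE 0.13)).

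STING-MSC-CM against TLR-MSC-CM, which shares the TLR-MSC-CM libraries with the comparison above, gave a median of -0.23 with 2 of 46 higher. No member passed an adjusted p under 0.05 in edgeR (0% of all genes), and DESeq2 called 33 genes and 0 members. Unadjusted, 9 members were lower, against 3.82% of all genes, and DESeq2 gave 8. For 29 members the value was lower in all 3 donors, against 19.6% of all genes, and for 9 the libraries did not overlap, against 7.27% of all genes. POLA2 had a log2 fold change of -0.42 (SE 0.13) (edgeR unadjusted p = 0.00907, adjusted p = 0.735), ORC1 of -0.50 (SE 0.18) and RRM2 of -0.37 (SE 0.14). The donor medians were -0.43 in AG1 with 0 members higher, -0.05 in ORC with 16 and -0.14 in PC with 6. The 9 became 0 without the TLR-MSC-CM library of AG1, and 17 with the CM donor as a block, a fit in which 336 genes but 0 members passed the adjusted threshold. The 3.82% above is the share in the fit without a block. Without donor AG1, the median was -0.10 with 10 of 46 higher, 0 members at an unadjusted p under 0.05 and 0 called.

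Whether the change with a CM differed between cell types was tested as an interaction over 27 libraries and 16584 genes. No member passed an adjusted p under 0.05 in any of the 6 interactions, nor did any gene in edgeR (0% in each), and DESeq2 called no member and up to 4 genes. The widest separation was between macrophages and synoviocytes with TLR-MSC-CM, where the signed log2 change in macrophages minus that in synoviocytes was above 0 for all 46 members, with changes of opposite sign in the 2 cell types for 43 of them, a median difference of 0.58 and 26 members at an unadjusted p under 0.05, against 2.32% of all genes. DESeq2 gave 25 and the fit with the donor block 24, and leaving out 1 library at a time gave 9 to 34, with 9 without the resting ORC library of the synoviocytes, 11 without their TLR-MSC-CM library of ORC and 13 without the TLR-MSC-CM library of AG1 in macrophages. POLA2 came first, with a difference of 0.91 (SE 0.23, edgeR unadjusted p = 0.000584, adjusted p = 1), then RFC5 with 0.45 (SE 0.12). The interaction reuses the libraries in which POLA2 had the smallest p in each of these cell types, so its rank adds no separate result. With STING-MSC-CM the same interaction had a median of 0.31, 44 of 46 above 0 and 5 members at an unadjusted p under 0.05, against 1.92% of all genes. Chondrocytes minus synoviocytes had a median of 0.24 with TLR-MSC-CM and 0.31 with STING-MSC-CM, with 0 members at an unadjusted p under 0.05 in both, against 1.72% and 1.74% of all genes. Macrophages minus chondrocytes had a median of 0.31 with TLR-MSC-CM and 2 members at an unadjusted p under 0.05, against 2.64% of all genes, and one of 0.03 with STING-MSC-CM and 1 member, against 3.59%.

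Between cell types, unlike between CM, members passed the adjusted threshold. Only libraries with resting MSC-CM entered these comparisons, 3 per cell type, and the cells of each type came from 1 horse, so cell type, horse and culture conditions cannot be told apart. Macrophages against synoviocytes had 35 of 46 members called by edgeR. There, 30 members were lower in macrophages, where 35.1% of 15599 genes were, and 5 were higher, where 36.6% of all genes were. The median log2 fold change of the members was -0.66. Macrophages against chondrocytes, which uses the same macrophage libraries, had 30 called, of which 25 were lower (34.9% of all genes) and 5 higher (36.6% of all genes), with a median of -0.46. Most genes thus differed in both comparisons, against the assumption of TMM, so the fold changes here depend on that scaling.

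H2AX had the smallest p in both comparisons. With resting MSC-CM it was at 11.5, 12.8 and 11.6 CPM in macrophages, 42.99, 47.2 and 40.998 in synoviocytes and 38.2, 42.98 and 30.2 in chondrocytes. The macrophage libraries did not overlap the others, and the log2 fold change was -1.88 (SE 0.13) against synoviocytes (edgeR adjusted p = 4.04e-07) and -1.65 (SE 0.13) against chondrocytes. DTL showed one of the widest gaps, at 2.26, 2.71 and 2.82 CPM in macrophages, 11.8, 21.2 and 15.02 in synoviocytes and 9.52, 14.4 and 12.003 in chondrocytes, with -2.64 (SE 0.24) against synoviocytes (edgeR adjusted p = 3.12e-06) and -2.22 (SE 0.24) against chondrocytes. TK1 was at 18.6, 18.4 and 19.6 CPM in macrophages, against the values already given in the stromal cells, with -1.93 (SE 0.19) against synoviocytes and -1.68 (SE 0.19) against chondrocytes. MCM7 was at 65.7, 72.3 and 70.8 CPM in macrophages and 171, 242 and 188 in synoviocytes, with -1.54 (SE 0.16).

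The members that were higher in macrophages were of mixed roles. SLBP was at 51.3, 56.97 and 59.5 CPM in macrophages, 21.4, 31.6 and 24.5 in synoviocytes and 25.6, 29.2 and 26.6 in chondrocytes, without overlap (1.10 (SE 0.14) against synoviocytes and 1.03 (SE 0.14) against chondrocytes). GINS4 was at 19.7, 13.1 and 13.8 CPM in macrophages, 6.58, 8.503 and 6.94 in synoviocytes and 6.88, 6.88 and 6.701 in chondrocytes (1.07 (SE 0.18) and 1.17 (SE 0.18)). POLD3 was at 16.7, 20.8 and 19.7 CPM in macrophages and 9.705, 12.2 and 11.1 in synoviocytes (0.78 (SE 0.13)). GMNN and E2F2, an activator of S phase genes, were also higher, with 0.55 (SE 0.13) and 0.92 (SE 0.26) against synoviocytes and 0.48 (SE 0.13) and 1.18 (SE 0.27) against chondrocytes. E2F2 stood at 5.57, 5.899 and 8.88 CPM in macrophages and 2.93, 4.65 and 3.14 in synoviocytes, a low level.

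The roles differed in how many members were lower in macrophages. All 4 members of nucleotide supply were called lower against each stromal cell, with medians of -0.99 and -0.94. Of histone supply and chromatin, UHRF1, CHAF1A, a subunit of the factor that places histones on new DNA, and H2AX were lower and SLBP higher, with medians of -1.35 and -1.31. Of the G1/S regulators, 3 of 5 were lower and E2F2 higher against each. In the helicase, 9 of 12 were lower and GINS4 higher against synoviocytes (median -0.75), and 5 lower and GINS4 higher against chondrocytes (median -0.28). Of the clamp, loader and joining genes, 4 of 8 were lower against synoviocytes and 5 against chondrocytes, of the polymerases 4 and 3 of 7 were lower with POLD3 higher, and of the licensing factors 2 and 1 of 5 were lower with GMNN higher. Licensing had medians of -0.07 and 0.15, the nearest to 0 among the roles. BRCA1 was lower against both, with -2.08 (SE 0.34) and -2.02 (SE 0.34).

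Members that passed in neither comparison included MCM2, MCM4, PCNA, ORC1, ORC6, PRIM1, POLE2, RFC5, FEN1, the flap nuclease, and CCNE1. ORC1 was at 9.22, 9.99 and 12.5 CPM in macrophages and 9.18, 13.4 and 10.6 in synoviocytes, which overlapped, and PCNA at 61.7, 50.5 and 58.7 and 48.2, 68.3 and 58.3, which overlapped too. In libraries with TLR-MSC-CM, 15 members were called lower in macrophages against synoviocytes, where 34.5% of all genes were, and 9 higher, where 36.9% were. With STING-MSC-CM 22 were lower (36.0% of all genes) and 6 higher (37.6%). CCNE2, LIG1, MCM3, POLA1, POLA2 and RFC4, called lower against synoviocytes with resting MSC-CM, had log2 fold changes above 0 with TLR-MSC-CM, from 0.01 in CCNE2 to 0.13 in MCM3. Mitosis genes differed far more, with 18 of 19 called lower in macrophages against synoviocytes (median -2.75) and 18 against chondrocytes (median -2.28). The 33 further replication factors split, with 15 lower and 11 higher against synoviocytes and 11 lower and 13 higher against chondrocytes. The T and NK cell markers in every macrophage library move with this comparison as well, and their part in it was not tested.

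**Figure D5:**
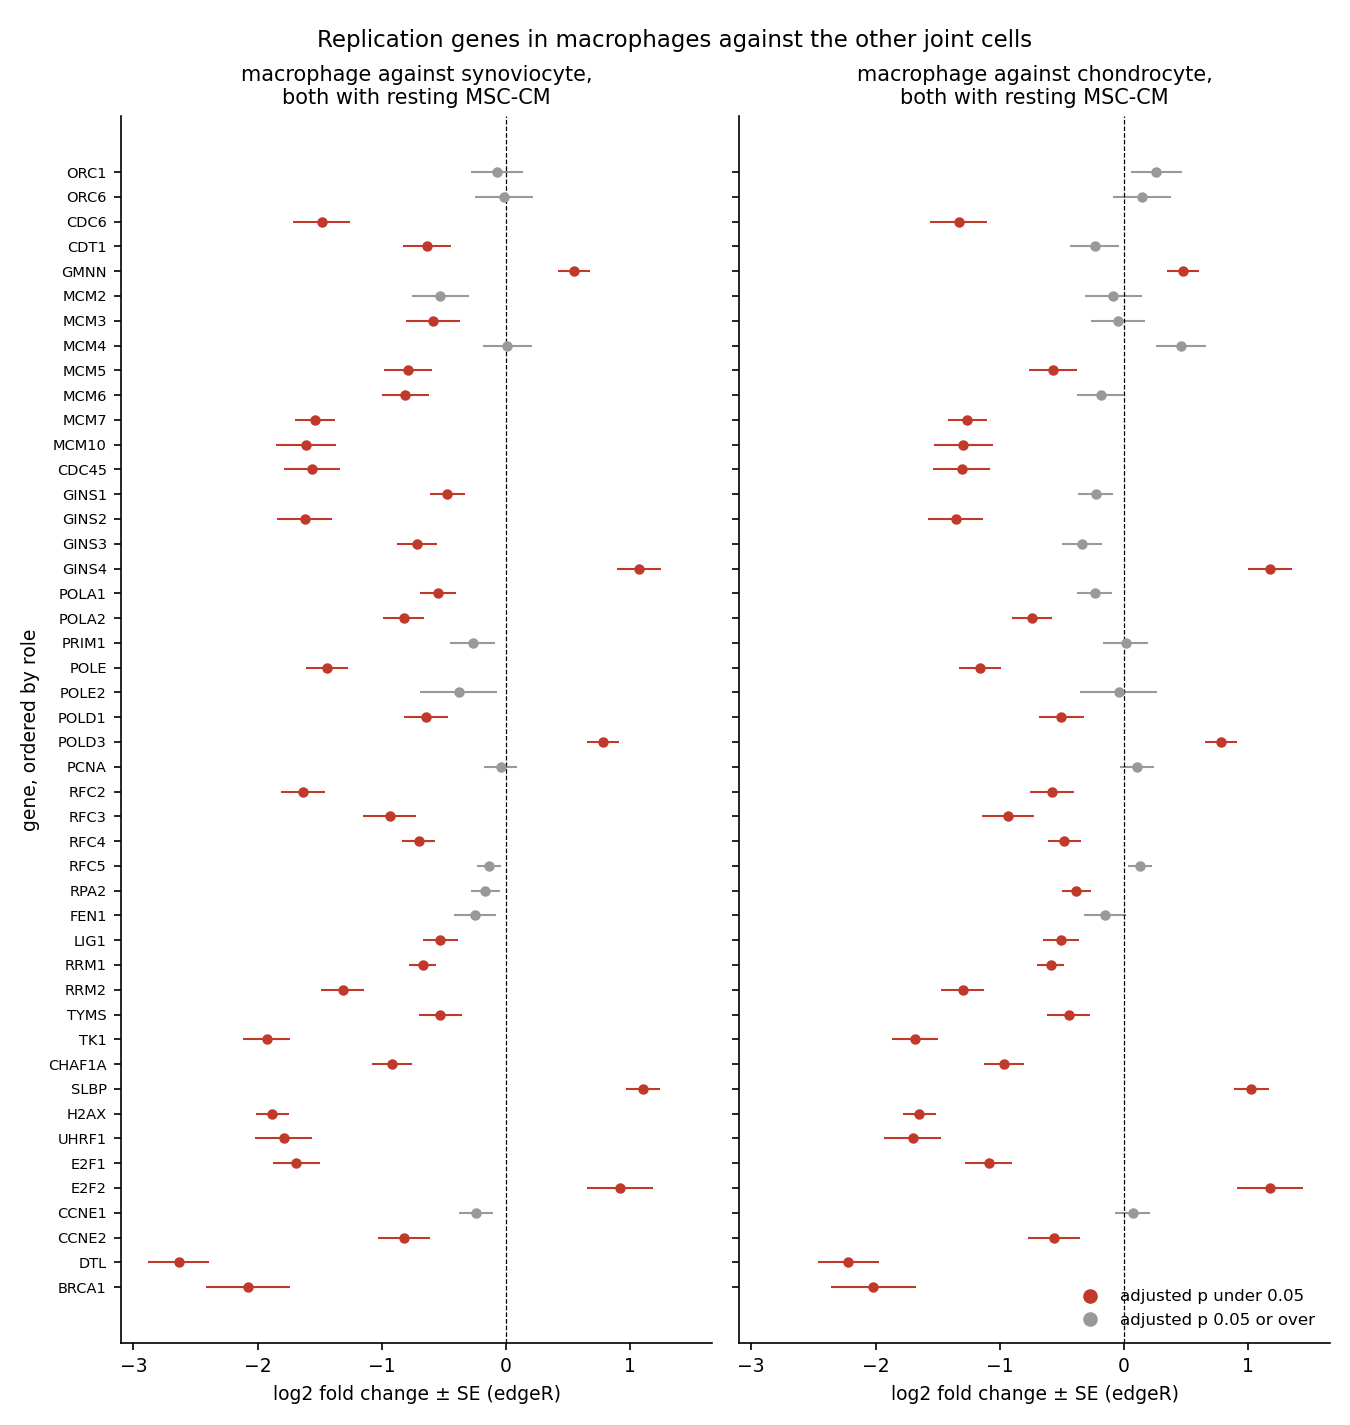
Log2 fold change with SE of each of the 46 tested members (rows, by role) in macrophages against synoviocytes (left) and against chondrocytes (right), all with resting MSC-CM, in red where the edgeR adjusted p was under 0.05 and in grey otherwise. Most called members lie below 0 in both panels, down to -2.64 in DTL, and SLBP, GINS4, POLD3, GMNN and E2F2 lie above it.

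Chondrocytes against synoviocytes had 3 of 46 members called, all lower, against 9.84% of all genes that were lower and 8.31% that were higher, where 0 members were. RFC2 was at 35.8, 41.01 and 37.9 CPM in chondrocytes and 60.4, 103 and 75.3 in synoviocytes, which did not overlap (-1.06 (SE 0.18), edgeR adjusted p = 0.00227). MCM6 was at 77.8, 112 and 88.9 and 110.4, 184 and 137, which overlapped by the ORC chondrocyte library (-0.63 (SE 0.19), adjusted p = 0.0443, edgeR). E2F1 was at 15.5, 17.8 and 13.2 and 19.9, 30.4 and 20.3, without overlap (-0.60 (SE 0.18), adjusted p = 0.0448, edgeR). The median over the members was -0.24. With the CM donor as a block 4 members were called, in a fit whose share of all genes is not given here. Leaving out 1 library at a time gave 1 to 9 members, with 9 without the ORC library of the chondrocytes and 1 without that of the synoviocytes. The calls over all genes moved too, from 1781 to 3759 in these fits, so the 9 cannot be set against the shares above. Among mitosis genes, 9 of 19 were called lower in chondrocytes (median -0.41).

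The libraries with cytokines only and with no addition were single, so their values have no replicate check. The members' mean log2(CPM + 1) was 4.15 with cytokines only and 3.97 with no addition in synoviocytes, 4.11 and 4.10 in chondrocytes, and 3.93 and 3.91 in macrophages. The synoviocyte library with no addition was the lowest of the 11 synoviocyte libraries. There RRM2 stood at 66.1 CPM with cytokines only and 53.7 with no addition, CDC45 at 15.3 and 9.87. CCNE2 was at 5.801 and 2.98. TK1 was at 55.7 and 39.99. MCM2 was nearly level, at 45.6 and 43.2. In chondrocytes CCNE2 was at 5.38 with cytokines only and 2.54 with no addition, whereas TYMS was at 47.7 and 60.9, the opposite order. In macrophages RRM2 was at 36.9 and 34.5. POLA2 was at 11.4 and 15.7, the latter within the range seen with TLR-MSC-CM.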

How the data were processed

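Polyadenylated RNA of 12 MSC libraries and 33 joint cell libraries was sequenced. The authors trimmed reads with cutadapt 1.12, aligned them with STAR to EquCab3.0 and counted them per gene with HTSeq 0.11.0, keeping protein-coding genes of an Ensembl annotation, and deposited raw counts in 2 tables; strand setting was not given in the sources used here. The largest counts carry 3 significant digits in the files, which touches no member.

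Groups and donors were taken from the labels, and no 2 libraries held identical values. CPM were computed with TMM factors over each table, and list levels are means of log2(CPM + 1). Each comparison was fitted with edgeR 4.0.16 in R 4.3.3 (quasi-likelihood test, two-sided, genes with a total under 10 counts left out, Benjamini-Hochberg adjustment over all genes tested, threshold 0.05), on the libraries of its cell type. The same steps were tested on simulated counts. The simulated group comparisons held no donor effect, so that check does not cover the spread between donors. Cell types were compared over the 9 libraries with resting MSC-CM, interactions over 27 libraries, and donors with condition as covariate. The alternatives were DESeq2 1.42.0, RLE scaling, other count filters, donor as a block, each library left out, and, chosen after seeing the data, donors 92, ORC or AG1 left out. Over all genes, libraries of the same donor deviated together in MSC (median r = 0.82), chondrocytes (0.68) and macrophages (0.44), in every pair, which makes the block a pairing there. Over the members alone the pairing was weaker in places, down to r = -0.082 for untreated and CpG MSC of donor 99. In macrophages it fell to 0.045 for TLR- and STING-MSC-CM of ORC. Chondrocyte libraries of AG1 and PC also deviated together over all genes, with r up to 0.61.

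The members and lists were chosen with earlier results of these data known. Named with full values were a panel of 16 members and, per comparison, up to 6 called members with the smallest p, or up to 3 with the smallest unadjusted p and 1 direction in all donors; other members were named as extremes or after their values were seen. Total counts limit precision to 0.0554 to 0.128 CPM at 3 counts, a floor that covers counting error only. Genome coordinates and sequences were not used here.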

Additional observations from a re-analysis of the deposited data

How the results depend on the processing

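Under every alternative run, 0 members passed the adjusted threshold in the CM comparisons of synoviocytes, chondrocytes and macrophages, in the 4 MSC comparisons and in the 6 interactions. The counts at an unadjusted p under 0.05 moved. The shares of all genes given above at that threshold belong to the main fits, with every library and no donor block. Leaving out 1 library at a time, they ran from 9 to 38 in synoviocytes with TLR-MSC-CM and from 7 to 35 with STING-MSC-CM, and without donor ORC they were 5 and 11. In macrophages they ran from 1 to 17 with TLR-MSC-CM and from 0 to 17 for STING-MSC-CM against TLR-MSC-CM, and without donor AG1 they were 3 and 0. With the donor block they were 17 in both of these macrophage comparisons and 5 for CpG, where the unblocked fit gave 0. In 5 further comparisons within a cell type the block gave 1 or 2 in place of 0, in chondrocytes against synoviocytes 13 in place of 8, and in macrophages minus chondrocytes 3 in place of 2 with TLR-MSC-CM and 0 in place of 1 with STING-MSC-CM. The block moved no count of members past the adjusted threshold by over 1.5 times. For macrophages minus synoviocytes the count ran from 9 to 34 with TLR-MSC-CM and from 0 to 12 with STING-MSC-CM, where 0 came without the resting ORC library of the synoviocytes and 12 without that of AG1. The cause was not tested. In synoviocytes, libraries of the same CM donor had a median correlation of deviations of 0.066 and a lowest one of -0.38, so there the block groups libraries by a shared CM donor that left no common deviation.

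Between cell types, chondrocytes against synoviocytes ran from 1 to 9 called members when single libraries were left out and gave 1 in the libraries with TLR-MSC-CM. With single libraries left out, 1781 to 3759 of all genes were called there. For macrophages against synoviocytes, in the libraries with TLR-MSC-CM the log2 fold change turned above 0 for CCNE2 (0.0056), LIG1 (0.043), MCM3 (0.13), PCNA (0.40), POLA1 (0.027), POLA2 (0.092) and RFC4 (0.045), and in those with STING-MSC-CM for MCM3 (0.011) and POLA1 (0.049). For macrophages against chondrocytes it turned above 0 for MCM2 (0.38) with TLR-MSC-CM. By the donor of the CM, synoviocytes ran from 0 to 13 called members and macrophages from 1 to 6. Of all genes, 0 to 710 were called in synoviocytes and 980 to 1996 in macrophages. In MSC the sign of the median was not stable: leaving out 1 library gave medians from -0.64 to 0.85 for poly I:C, from -0.47 to 0.90 for 2′3′-cGAMP and from -0.94 to 0.30 for CpG. Every tested member had at least 10 counts in each library, above the floor of 3 counts.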
